A study of Mus musculus with 2 samples.

Results

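The genes described here are 10 leucine-rich repeat adhesion genes of neurons: Lingo1, Lingo2, Lrrc4c, Lrrtm3, Lrrtm4, Slitrk1, Slitrk5, Slitrk6, Flrt2 and Flrt3. They are 10 of the 21523 protein-coding genes on chromosomes 1 to 19 and X. For each of them the H3K9me2 peaks that overlapped the gene body extended by 2 kb on both sides, and those within 1 Mb of the body, were taken from 2 deposited peak lists. The set was chosen by gene family with the peak numbers of these libraries in and around the genes known, so those numbers are given as descriptions. The libraries came from cortex of C57BL/6 embryos at embryonic day 15.5, 1 from wild type and 1 from embryos carrying TBC1D3 as a transgene. TBC1D3 is a gene found in hominoids. The promoter that drives it in these mice, the number of embryos per library and the line's origin are not given in the sources used here. With 1 library per genotype no test between genotypes was possible, and the intervals below are exact 95% intervals that cover counting error only. The lists hold no expression values, so the labelled tissue could not be checked against marker genes.

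H3K9me2, dimethylation of lysine 9 on histone H3, is a mark of repressed chromatin that G9a and GLP write. It is known to spread over wide domains, often in gene-poor chromatin at the nuclear periphery. The genes of this set encode proteins with extracellular leucine-rich repeats, which in many of them bind partners on the facing cell. Members of the set are known for roles in synapse formation, axon guidance and cell positioning in cortex. LRRTM proteins bind neurexins, SLITRK proteins bind receptor tyrosine phosphatases, the Lrrc4c product (also called NGL-1) binds netrin-G1, FLRT proteins bind latrophilins and UNC5 receptors, and LINGO1 is a partner of the Nogo receptor.

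In the transgenic list 3 of the 10 genes held a peak: Lingo2 with 3, Lrrc4c with 2 and Lrrtm3 with 1. In the wild-type list only Lrrc4c did, with 1. Both numbers of genes were near what gene length gives, as set out below. Together the extended bodies held 6 transgenic peaks (2.2 to 13.1), where the mean density of the same list over their chromosomes gives 9.06. They held 1 wild-type peak (0.0253 to 5.57), where that density gives 1.12. The other 7 genes, Lingo1, Lrrtm4, Slitrk1, Slitrk5, Slitrk6, Flrt2 and Flrt3, held no peak of either list in the extended body. Over all coding genes 5.69% held a transgenic and 0.911% a wild-type peak. A transgenic without a wild-type peak was held by 2 of the 10, Lingo2 and Lrrtm3, and by 5.16% of all coding genes. A peak in these lists is a short and weak interval: the median peak rested on 6 fragments in both, and no wild-type peak had a q under 0.136 and no transgenic peak one under 0.0673.

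RefSeq (GRCm38.p6) lists 13 starts for the 10 genes, and 0 wild-type and 0 transgenic peaks overlapped the 300 bases around them (250 before and 50 after each start). These windows cover 3.9 kb, for which chromosome density gives 0.00122 and 0.00969 peaks, and over the 21045 such windows of coding genes 0.0095% and 0.0333% overlapped one, so the zeros carry no information on these starts. The nearest transgenic peak lay between 33 kb (Lrrtm3) and 1030 kb (a start of Lingo1) away, with a median of 143 kb. The nearest wild-type peak lay between 252 kb and 3880 kb away, with a median of 1170 kb. The sequences below are those of the 3 genes that held peaks. That of Slitrk5, picked because it is rich in CG, is set beside them to show how unlike these starts are. All sequences are printed 5′ to 3′ on the gene's strand, and capitals mark each CG dinucleotide, which reads the same on both strands.

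Lingo2, outer start, chr4:36718914-36719213, minus strand: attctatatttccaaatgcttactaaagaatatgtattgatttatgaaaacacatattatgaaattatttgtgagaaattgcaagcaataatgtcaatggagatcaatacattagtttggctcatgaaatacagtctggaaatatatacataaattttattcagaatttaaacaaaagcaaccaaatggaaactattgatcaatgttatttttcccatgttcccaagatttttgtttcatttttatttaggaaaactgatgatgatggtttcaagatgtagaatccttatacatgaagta
Lingo2, inner start, chr4:35845155-35845454, minus strand: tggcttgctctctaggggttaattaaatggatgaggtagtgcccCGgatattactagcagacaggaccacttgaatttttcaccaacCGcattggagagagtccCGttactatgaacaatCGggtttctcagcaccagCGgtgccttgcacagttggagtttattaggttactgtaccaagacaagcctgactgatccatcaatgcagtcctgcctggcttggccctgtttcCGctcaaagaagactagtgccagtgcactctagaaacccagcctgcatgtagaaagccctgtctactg
Lrrc4c, chr2:96317919-96318218, plus strand: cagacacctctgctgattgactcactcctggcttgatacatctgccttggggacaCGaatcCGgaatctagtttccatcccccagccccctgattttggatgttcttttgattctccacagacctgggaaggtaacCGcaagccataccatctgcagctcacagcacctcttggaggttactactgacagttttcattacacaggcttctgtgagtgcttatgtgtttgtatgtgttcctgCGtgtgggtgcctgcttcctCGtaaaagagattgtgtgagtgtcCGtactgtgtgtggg
Lrrtm3, chr10:64090206-64090505, minus strand: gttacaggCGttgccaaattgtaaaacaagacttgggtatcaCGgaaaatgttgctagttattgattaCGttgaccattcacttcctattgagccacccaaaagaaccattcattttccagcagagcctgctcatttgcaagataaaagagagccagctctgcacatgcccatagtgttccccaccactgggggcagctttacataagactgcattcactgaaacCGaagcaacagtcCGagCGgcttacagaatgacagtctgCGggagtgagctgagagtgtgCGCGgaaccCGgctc
Slitrk5, chr14:111675777-111676076, plus strand: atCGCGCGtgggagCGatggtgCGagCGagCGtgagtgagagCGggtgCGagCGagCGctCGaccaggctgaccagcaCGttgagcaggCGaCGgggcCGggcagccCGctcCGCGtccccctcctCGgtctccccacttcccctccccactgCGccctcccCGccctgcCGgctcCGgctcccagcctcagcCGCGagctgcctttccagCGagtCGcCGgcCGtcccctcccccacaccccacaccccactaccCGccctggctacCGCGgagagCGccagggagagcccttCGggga

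The outer Lingo2 start had 0 CG dinucleotides and 26.3% G and C, while the inner one had 6 and 49.3%. Lrrc4c had 6 and Lrrtm3 10. Slitrk5 had 35, the same number as the outer start of Lingo1. The other starts of genes without a peak had 32 (inner Lingo1), 14 (Flrt2), 9 (Slitrk1), 4 and 9 (Lrrtm4), 8 (Flrt3) and 4 (Slitrk6). Low CG numbers were thus found in genes with and without a peak. Of the 21045 windows in the table, 95.5% held a CG, the median was 13, and 4.46% held none.

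Lingo2, a brain relative of Lingo1, lies on the minus strand at chromosome 4, 35696778 to 36951744. It held 3 transgenic peaks (0.619 to 8.77) and 0 wild-type peaks. At the mean density of the same list over chromosome 4, called chromosome density below, its length would hold 2.62 and 0.386. The strongest, at 36544087 to 36544244, rested on 10 fragments with a fold of 5.97 and a q of 0.0673. Fold here is the authors' ratio of the pileup plus 1 to the local background plus 1. This peak lay 407.6 kb from the 5′ end of the annotated gene, between the outer and the inner start and 175 kb from the nearer. The peak at 36789834 to 36789967 (6 fragments, fold 3.41, q 0.216) lay 70.9 kb from the outer start, on its upstream side but still inside the annotated gene. The peak at 35721291 to 35721423 (7 fragments, fold 3.88, q 0.132) lay near the 3′ end, at 98.0% of the gene's length. The 3 peaks were thus spread over the gene. Within 1 Mb Lingo2 had 10 transgenic peaks (4.80 to 18.4) against 6.77 at chromosome density, and 1 wild-type peak, 677 kb upstream. Upstream of the gene lay 4 of the transgenic peaks, in a stretch with no coding gene up to 1700009N14Rik 2500 kb away, and 2 of these had a fold of 4.34 on 7 fragments.

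Lingo1, a component of the Nogo receptor complex that restrains axon growth and myelination, held 0 peaks of both lists over its 178 kb on chromosome 9. Chromosome density gives 0.473 transgenic and 0.0629 wild-type peaks for that length. Within 1 Mb it had 1 transgenic peak (0.0253 to 5.57) against 5.67 at chromosome density, and 0 wild-type peaks against 0.753. The single peak (7 fragments, fold 3.98) lay 874 kb upstream, 6.16 kb from Cyp1a2. Of the 10 genes Lingo1 had the lowest density around it, 0.459 transgenic peaks per Mb, and it was the single one whose interval did not reach the chromosome's mean. It also had the most coding genes within 1 Mb, 35, and Odf3l1, 52.3 kb upstream, held no peak. A transgenic density lower than that of Lingo1 was found around 15.2% of coding genes. Around genes with 10 or more coding neighbours the lower quartile was 0.498 per Mb.

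Lrrc4c, the netrin-G ligand gene, is the longest of the set, on the plus strand at chromosome 2, 96318169 to 97631672. It was the single gene of the 10 with peaks of both lists, as 0.525% of coding genes of all lengths had. Among coding genes of at least 1 Mb, 94.9% held a transgenic and 39.0% a wild-type peak. The wild-type peak at 96627446 to 96627517 rested on 6 fragments with a fold of 4.12 and a q of 1. The transgenic peaks at 96387224 to 96387334 and 97585843 to 97585953 rested on 7 fragments each, with folds of 4.31 and 4.29 and a q of 0.0895 for both. One lay 69.1 kb after the start and the other at 96.5% of the gene's length, so the wild-type peak was 240 kb from the nearer. The 2 transgenic peaks (0.242 to 7.22) compare with 3.16 at chromosome density and the 1 wild-type peak (0.0253 to 5.57) with 0.412. Within 1 Mb the transgenic list held 4 peaks against 7.94 and the wild-type list 2 against 1.04. No other coding gene lay in that window: the nearest, Api5 and Iftap, were 1880 kb upstream and 3930 kb downstream.

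**Figure D1:**
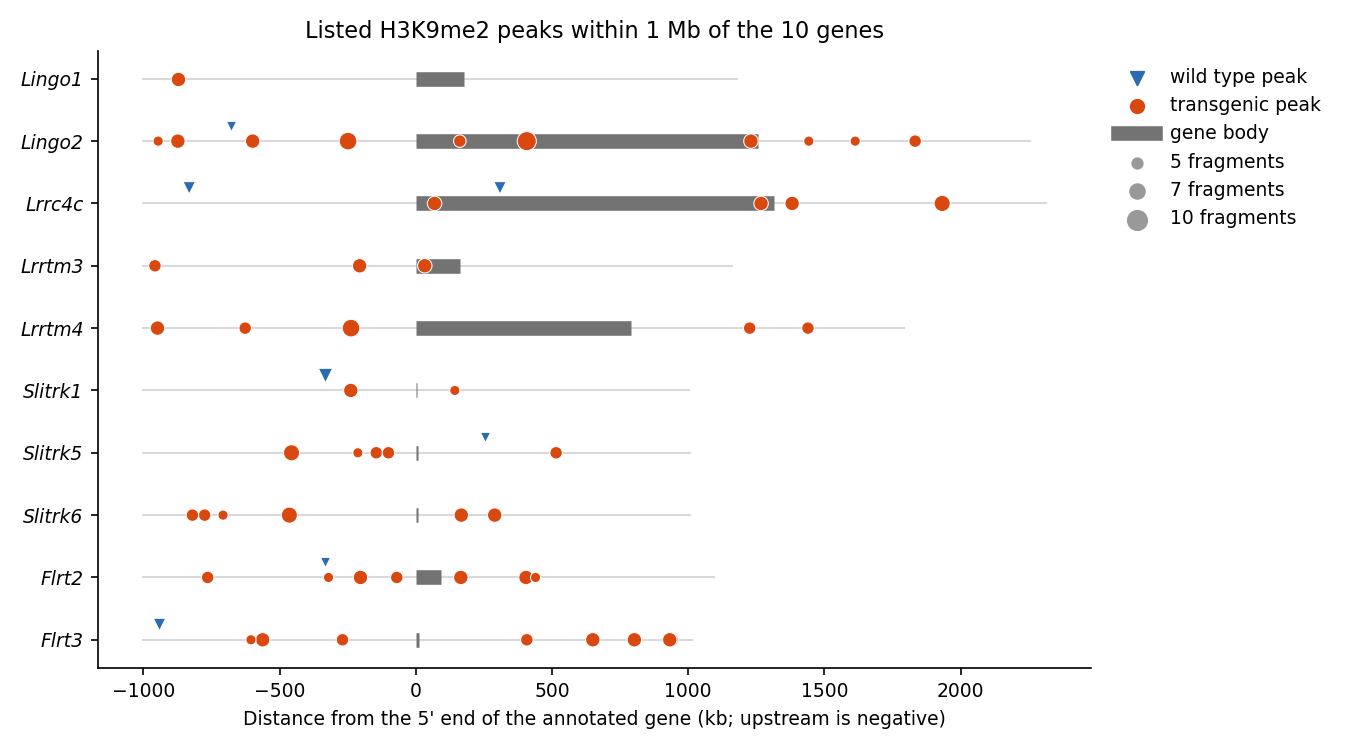
Position of each listed peak within 1 Mb of the 10 genes, in kb from the 5′ end of the annotated gene (upstream is negative). Bars are gene bodies, circles transgenic and triangles wild-type peaks, with size giving the fragments (5 to 10). Peaks fall inside the bars of Lingo2, Lrrc4c and Lrrtm3 only, and Slitrk5 and Slitrk6 share 4 of their circles.

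The LRRTM genes encode postsynaptic proteins that bind neurexins. Lrrtm3, on the minus strand at chromosome 10, 63928497 to 64090255, held 1 transgenic peak (0.0253 to 5.57) against 0.421 at chromosome density, and 0 wild-type peaks against 0.0403. The peak, at 64057022 to 64057220, rested on 7 fragments with a fold of 4.21 and a q of 0.0902, 33.1 kb from the start. Lrrtm3 lies within Ctnna3, which encodes an alpha-catenin, so this peak lies in both genes. Ctnna3 held 2 transgenic peaks against 4.01 at chromosome density over its 1570 kb, and the other (fold 4.01) lay 206 kb upstream of Lrrtm3. Within 1 Mb Lrrtm3 had 3 transgenic peaks against 5.49 and 0 wild-type peaks against 0.525.

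Lrrtm4 is a 791 kb gene on chromosome 6 and held 0 peaks of both lists. Chromosome density gives 2.02 transgenic peaks for it, inside the interval of a count of 0 (0 to 3.69). Of the 227 coding genes over 500 kb, 84.6% held a transgenic peak, so Lrrtm4 was among the minority without. Within 1 Mb it had 5 transgenic peaks against 7.10 and 0 wild-type peaks against 0.609. All 5 lay outside the gene, and the strongest, at 79781194 to 79781304, rested on 9 fragments with a fold of 5.43 and a q of 0.0673. It lay 238 kb upstream of the start and 36.7 kb from Gm20594, in no coding gene. Lrrtm4's only coding neighbour within 1 Mb was Gm20594, and Gcfc2 lay 1100 kb downstream.

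**Figure D2:**
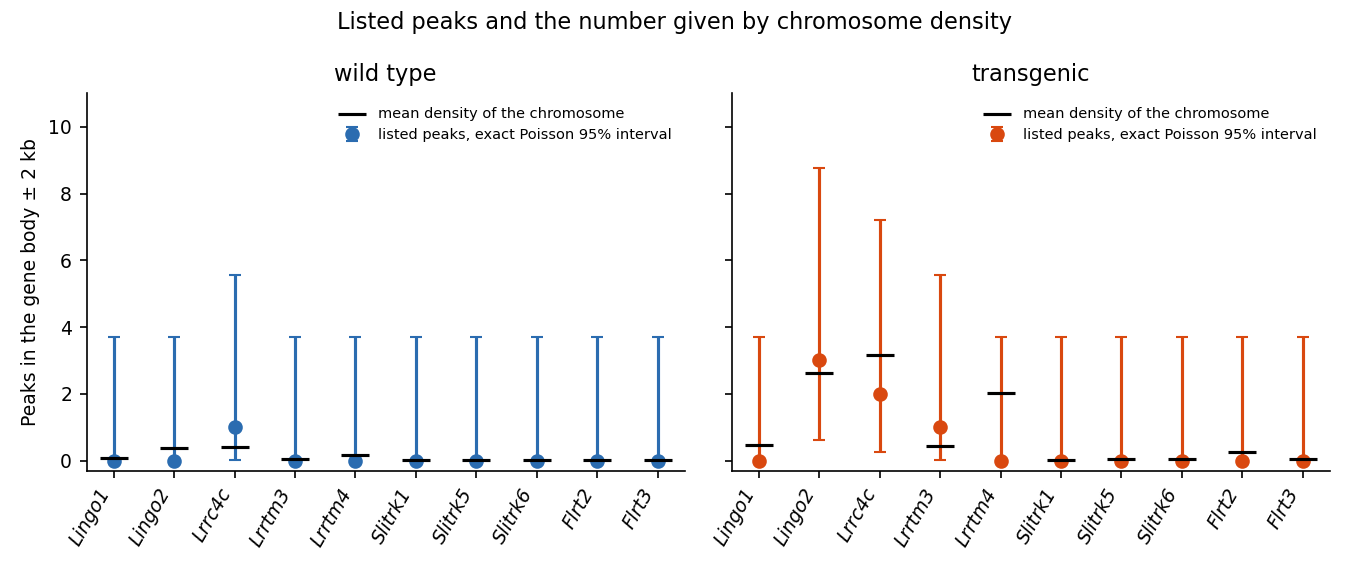
Peaks in each gene body extended by 2 kb, wild type left and transgenic right, with exact Poisson 95% intervals. Black bars give the number at the mean density of the gene's chromosome in the same list. Every bar lies within the interval of its gene, from Lingo2 (3 peaks, bar at 2.62) to Lrrtm4 (0 peaks, bar at 2.02). The interval of a count of 0 reaches 3.69, above every bar drawn, so genes with 0 peaks could not fall outside it.

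The SLITRK genes encode single-pass adhesion proteins that bind receptor tyrosine phosphatases across the synapse. Slitrk1, Slitrk6 and Slitrk5 lie on chromosome 14 and are short, 4.25, 7.87 and 8.03 kb. At chromosome density bodies of this size give 0.0220 to 0.0321 transgenic peaks, so 0 in each carries no information on the genes themselves. Their surroundings could be read further. Slitrk1 (108909988 to 108914239) had 2 transgenic peaks within 1 Mb against 5.35 at chromosome density, and 1 wild-type peak against 0.774. The wild-type one, 335 kb upstream, rested on 7 fragments with a fold of 4.74, the highest of the 7 wild-type peaks near these genes, and a transgenic peak of fold 4.34 lay 96.1 kb from it. Slitrk6 (110747338 to 110755204) had 6 transgenic peaks against 5.36 and 0 wild-type peaks. Slitrk5 (111675115 to 111683144) had 5 transgenic peaks against 5.36 and 1 wild-type peak (5 fragments, fold 3.54), 245 kb downstream. The windows of Slitrk5 and Slitrk6 overlap, and 4 of the transgenic peaks belong to both. Of these shared peaks the strongest, at 111219110 to 111219220 (8 fragments, fold 4.89, q 0.0673), lay 464 kb upstream of Slitrk6 and 456 kb upstream of Slitrk5. No other coding gene lay within 1 Mb of either. The next downstream of Slitrk5 was Gpc5, 3410 kb away, a glypican gene of 1430 kb that held 8 transgenic and 0 wild-type peaks. Chromosome density gives 3.84 and 0.555 for Gpc5.

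The FLRT genes encode ligands of latrophilins and UNC5 receptors that act in cell migration and synapse formation. Flrt2 (chromosome 12, 95692006 to 95785215) held no peak in its 93.2 kb, where chromosome density gives 0.243 transgenic peaks. It had 7 transgenic peaks within 1 Mb (2.81 to 14.4) against 5.22, and 1 wild-type peak against 0.644. The transgenic peaks had 5 to 7 fragments and folds of 3.02 to 4.03, and the nearest lay 69.6 kb upstream and 72.2 kb downstream of the gene. The wild-type peak (5 fragments, fold 3.47) lay 332 kb upstream and 11.4 kb from a transgenic peak of 5 fragments, the closest pair between the lists near these genes. No other coding gene lay within 1 Mb of Flrt2.

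Flrt3 (chromosome 2, 140658198 to 140671476), which lies within Macrod2, held no peak in its 13.3 kb, for which chromosome density gives 0.0414 transgenic and 0.00541 wild-type peaks. Its surroundings had the highest transgenic density of the set, 8 peaks within 1 Mb (3.45 to 15.8) against 4.83, or 3.97 per Mb. A lower transgenic density was found around 89.9% of coding genes. Of the 8, 3 lay in Macrod2, 2 in Ism1, 2 in Tasp1 and 1 in Sel1l2, with folds of at most 4.34. The Ism1 pair was 4.39 kb apart, the shortest gap between transgenic peaks near the 10 genes. Macrod2 itself, 2000 kb long, held 7 transgenic peaks against 4.80 and 2 wild-type peaks against 0.626.

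Longer coding genes held peaks more often in both lists. The 10 genes ran from 4.25 kb (Slitrk1) to 1310 kb (Lrrc4c). A transgenic peak was held by 1.74% of coding genes under 50 kb, 10.7% of those of 50 to 200 kb, 41.9% of those of 200 to 500 kb and 84.6% of those over 500 kb. For the wild-type list the shares were 0.139%, 1.45%, 7.99% and 24.2%. Adding these shares over the lengths of the 10 genes gives 2.93 genes with a transgenic and 0.776 with a wild-type peak, beside the 3 and 1 listed. Of the 59 coding genes of at least 1 Mb, 94.9% held a transgenic and 39.0% a wild-type peak, so Lingo2 and Lrrc4c, the 2 of that length here, were like most genes of their size in holding transgenic peaks. At least 3 transgenic peaks, as in Lingo2, were held by 0.664% of coding genes of all lengths. The mean over the 227 coding genes of more than 500 kb was 2.5 transgenic peaks, beside the 3 of Lingo2. Only 59 of those genes reach 1 Mb, so most are shorter than Lingo2. The 3 coding genes with Lingo2's counts (3 and 0) and the nearest length, out of 53 with those counts, were Csmd3, Pde4d and Frmpd4, which differed from it by 43.0, 46.8 and 149 kb.

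**Figure D3:**
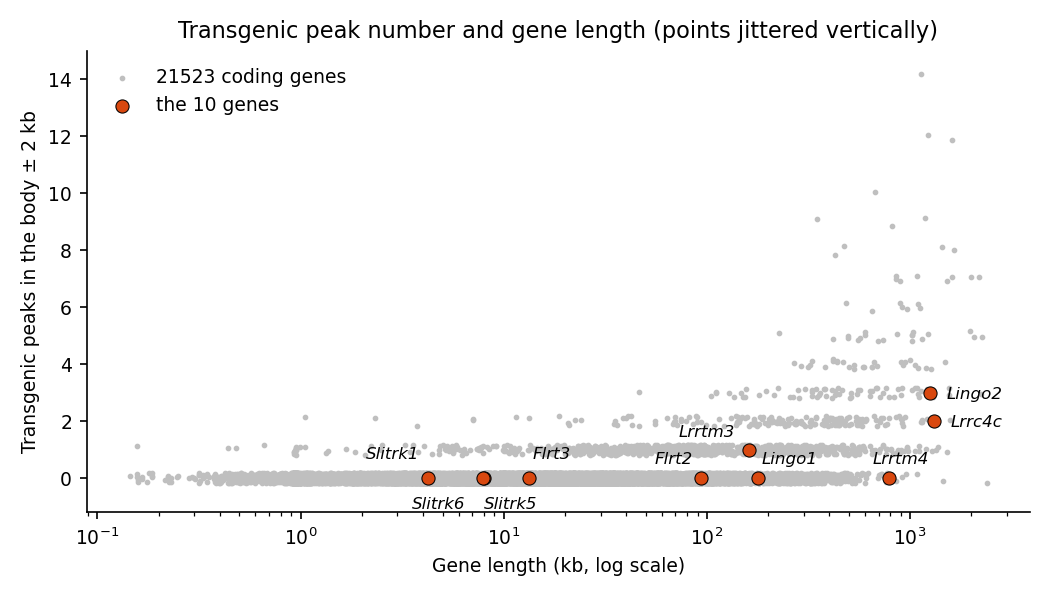
Transgenic peaks in the body extended by 2 kb against gene length (kb, log scale) for 21523 coding genes (grey, jittered vertically) and the 10 genes (orange). Counts climb with length, and Lingo2 (3), Lrrc4c (2) and Lrrtm3 (1) lie among grey points of like length, with Lrrtm4 (0) at the low edge for 791 kb.

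How isolated the genes are was not part of the peak rule. The set was chosen with peak numbers around the genes known, and peak density varied with the number of coding neighbours, as given below. Isolation may therefore not be independent of that choice and is given as a description. No other coding gene lay within 1 Mb of 3 of them (Lrrc4c, Slitrk1 and Flrt2), and 1 lay within 1 Mb of another 3 (Lrrtm4, Slitrk5 and Slitrk6). Slitrk5 and Slitrk6, 920 kb apart, are each other's only such neighbour and share 1 gene-poor region. So 6 of the 10 had at most 1 coding neighbour, against 0.544% of all coding genes, whose median was 30. Lingo2 had 8, Flrt3 6, Lrrtm3 12 and Lingo1 35. Transgenic density around the 6 isolated genes had a median of 2.14 peaks per Mb, beside 2.41 (quartiles 1.45 and 3.20) around the 117 coding genes with at most 1 neighbour. The median was 2.89 around genes with 2 to 9 neighbours and 1.49 around genes with 10 or more. The windows of neighbouring genes share peaks, so these medians are descriptions. Among the isolated genes density still ranged from 0.998 per Mb (Slitrk1) to 3.34 (Flrt2).

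**Figure D4:**
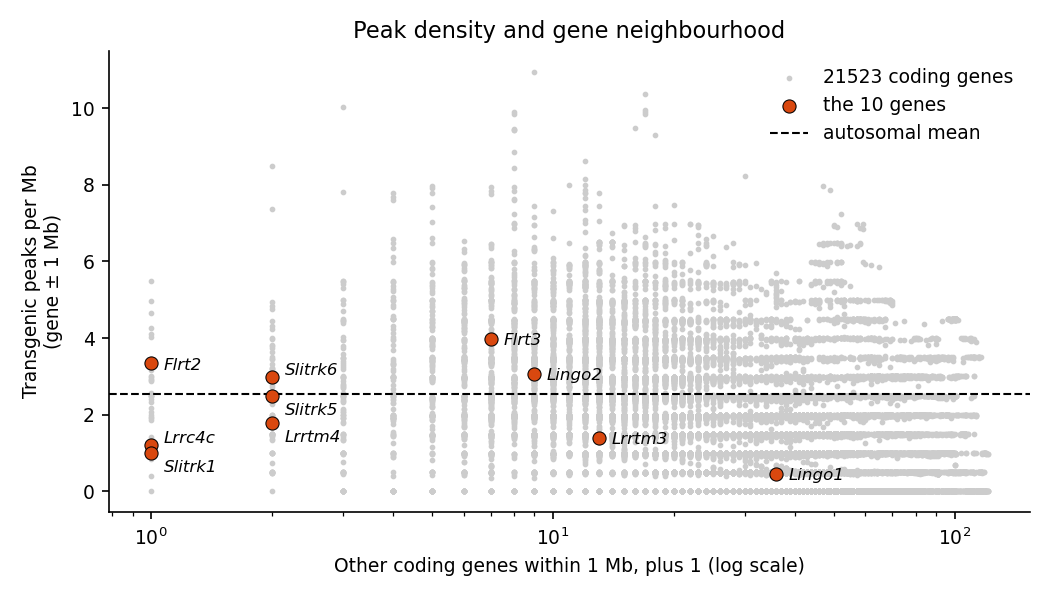
Transgenic peaks per Mb in the gene and 1 Mb on each side, against the number of other coding genes within 1 Mb plus 1 (log scale), for 21523 coding genes (grey) and the 10 genes (orange). The dashed line is the autosomal mean of 2.53 per Mb. Of the 10 genes, 6 sit at 0 or 1 neighbour with 0.998 to 3.34 peaks per Mb, and Lingo1, with 35 neighbours, is lowest at 0.459.

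Counted once each, 47 transgenic peaks (34.5 to 62.5) and 7 wild-type peaks (2.81 to 14.4) lay in the 22.6 Mb within 1 Mb of the 10 genes. Chromosome density gives 55.8 and 7.04. All 10 genes had a transgenic peak within 1 Mb, as had 85.1% of coding genes, and 6 had a wild-type one, as had 34.0%. The transgenic density was 2.08 per Mb (1.53 to 2.77) against an autosomal mean of 2.53, and the wild-type density 0.310 (0.125 to 0.639) against 0.309. The ratio of transgenic to wild-type peaks was 6.71 (3.02 to 17.6), an interval that holds the 8.42 of the whole lists. For 9 of the 10 genes the interval of the transgenic window count held the number at chromosome density. Peak calling differed between the lists, with wild-type fragments extended to 57 bp and transgenic ones to 111 bp, and 26735120 against 20697113 ChIP tags. Its part in the difference in peak number cannot be told apart from that of genotype.

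The transgenic peaks around these genes had 5 to 10 fragments, with a median of 7 beside 6 in the whole list, and folds from 2.86 to 5.97, with a median of 3.82 beside 3.62 in the whole list. Of the 47, 13 (27.7%) had a q of at most 0.1, beside 23.1% of the list. The 6 peaks in the extended bodies had a median fold of 4.25, and 4 of them (66.7%) had a q of at most 0.1. The wild-type peaks had 5 to 7 fragments and folds from 3.31 to 4.74, and all 7 had a q of 1. In the transgenic list 31 of the 47 overlapped no coding gene, beside 71.4% of the whole list. In the wild-type list 5 of 7 overlapped none, beside 71.7% of that list. The 3 transgenic peaks of highest fold, in Lingo2 (10 fragments), upstream of Lrrtm4 (9) and upstream of Slitrk5 and Slitrk6 (8), had a local background at the genome-wide level of 0.841 fragments, to within 0.005. So had 9 of the 47 (19.1%), beside 9.64% of the whole list. Where the background is at that level the fold is set by the fragment number alone, which is why a fold of 4.34 recurs for 7 fragments near Lingo2, Slitrk1, Slitrk6 and Flrt3.

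Of the 7 wild-type peaks near these genes 0 lay within 10 kb of a transgenic peak, where 10.1% of all 743 wild-type peaks did, so with 7 peaks a count of 0 does not set them apart. Within 100 kb lay 3 of 7, beside 52.1% of all. At the edges of the rule, no peak lay in a 2 kb flank. The nearest outside it was a transgenic peak 68.15 kb from Lrrc4c (fold 3.82). At the 1 Mb limit the outermost transgenic peak lay 957.3 kb from Lrrtm3 (fold 3.02) and the first beyond it 1010 kb from Lrrtm4 (fold 3.26).

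The relatives and partners of these genes were read the same way. Of the 10 other genes of the same families (Lingo3, Lingo4, Lrrc4, Lrrc4b, Lrrtm1, Lrrtm2, Slitrk2, Slitrk3, Slitrk4 and Flrt1) 0 held a peak in either list. They are short, with a median of 11.8 kb, and the shares of their length classes add up to 0.264 genes with a transgenic peak. Of 20 binding partners 3 held a wild-type and 6 a transgenic peak, where their length classes give 1.75 and 6.93. The presynaptic neurexin Nrxn3, a ligand of LRRTM proteins, held 7 transgenic peaks against 4.03 at chromosome density and 1 wild-type peak. Ptprd, a receptor phosphatase that binds SLITRK proteins, held 5 against 4.73 and 1 wild-type peak, and its strongest transgenic peak had 9 fragments, a fold of 5.39 and a q of 0.0673. Ntng1, which encodes netrin-G1, the partner of Lrrc4c, held 2 transgenic peaks against 1.00. Adgrl3, a latrophilin that binds FLRT3, held 1 peak of each list against 1.78 transgenic and 0.213 wild-type peaks at chromosome density, and Robo1, an axon guidance receptor that interacts with FLRT3, held 3 transgenic peaks against 2.82. Of 29 other neuronal leucine-rich repeat genes 4 held a transgenic peak (Ntrk2, Ntrk3, Slit3 and Lrfn2, with 1 each) and 0 a wild-type peak, where length classes give 3.66 and 0.700. Of the alpha-catenin genes and Macrod2, 3 of 4 held a transgenic peak, where their length classes give 2.64. Ctnna2 held 4 against 2.80 at chromosome density, and Ctnna1 held 0 against 0.398.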

How the data were processed

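H3K9me2 chromatin immunoprecipitation followed by sequencing was available as 1 peak list per genotype, wild type and TBC1D3 transgenic. Per the file headers, MACS 2.1.0.20150420 was run by the authors on each ChIP library and its input at a p cutoff of 0.001. The submitters' processing notes name BWA and mm10. The deposited pileup signal is scaled to the smaller of ChIP and input, and was divided by that factor (0.951 in the wild type, 1 in the transgenic) to give fragments, which came out whole within 0.02 for 100% of peaks. The deposited fold ratio and −log10 p and q were used as listed, q included, which the headers say would be left uncalculated. Depth was 26735120 and 20697113 ChIP tags.

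Peaks were placed on RefSeq genes of GRCm38.p6 (mm10), leaving out 340 genes starting below 3 Mb. This table has no exons, so exons and introns were not separated. Promoter windows, their sequences and their CG counts come from RefSeq promoters of the same build. Sequences under peaks were not analysed here. Chromosome density is a list's peaks over the span from 3 Mb to the last gene or peak. Intervals are exact Poisson, or Clopper-Pearson for the ratio (scipy 1.17.1). Overlap counting was tested on simulated peaks. Members, lists and rules were chosen with earlier results of these data known. Named genes are the members, their nearest coding neighbours and hosts, listed relatives and partners with peaks, the genes most like Lingo2, and genes of the strongest peaks. Some genes that this rule selects are not reported here. Genes holding or next to other peaks near the members were named after their values were seen. Alternatives were other extensions and windows, a fold or −log10 p of at least 5, merging within 1 kb and a shortened transgenic list.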

Additional observations from a re-analysis of the deposited data

How the results depend on the processing

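No paired analysis was possible because each genotype has 1 library, and no library could be left out. Extending bodies by 0 or 10 kb, and merging peaks within 1 kb, left each count within 1.5 times. Keeping folds of 5 and more left 0 (wild type) and 1 (transgenic) of the 10 genes with a peak, 0 and 1 peaks in the bodies, 0 and 2 within 1 Mb, and 0 and 1 genes of the other lists with a peak (4 and 13 before). A −log10 p of at least 5 left 0 wild-type genes and 0 wild-type body peaks, 1 and 18 peaks within 1 Mb, and 1 and 7 genes of the other lists. At least 7 fragments, chosen after seeing the data, left 0 wild-type and 3 transgenic genes, with 0 and 5 body peaks. It left 1 and 26 peaks within 1 Mb. The transgenic list shortened to 743 peaks left 1 gene with 1 body peak (Lingo2), 4 peaks within 1 Mb and 1 gene of the other lists. These filters shorten the lists. Of all 743 wild-type and 6253 transgenic peaks, folds of 5 and more kept 62 and 166. A −log10 p of at least 5 kept 185 and 2036, and at least 7 fragments kept 291 and 3043. Windows of 500 kb held 4 and 29 peaks, and windows of 2 Mb 88 transgenic ones. Wild-type peaks near a transgenic one numbered 3 at 100 kb and 0 at the other distances.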
